A study of Bos grunniens x Bos taurus and Bos grunniens with 6 samples.

Results

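The genes described here encode the protein kinases and the checkpoint proteins that drive and guard the separation of chromosomes. The set was chosen by name and holds AURKA, AURKB, AURKC, PLK1, PLK4, BUB1, BUB1B, TTK, MAD2L1 and INCENP. Of these 10 symbols 8 have a row in the deposited table, and BUB1B and INCENP were not analysed here. MAD2L1 stands on 2 rows, so that 9 of the 18918 genes in the table are reported. The libraries were made from testis tissue of 3 cattle-yak (TES5, TES6 and TES7) and 3 yak (Yak8, Yak9 and Yak10), with 1 animal per library. The yak were Gannan yak, the cattle-yak were first-generation males from a Jersey bull and a Gannan yak cow, and every animal was 4 years old. The groups were kept in different counties, which cannot be told apart from the cross. Per the labels all testes came from castration, whereas the study's methods give castration for the cattle-yak and euthanasia for the yak, and if so that too cannot be told apart. The question asked of these genes was how their transcripts differ between the sterile hybrid and the fertile yak.

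In a dividing cell, Aurora A (AURKA) matures the centrosomes and builds the spindle poles, while Aurora B (AURKB) sits on the centromeres and corrects wrong attachments. Aurora C (AURKC) is best known from the meiotic divisions of spermatocytes and oocytes. PLK1 acts from mitotic entry to cytokinesis, PLK4 starts the copying of centrioles, and TTK and BUB1 are the kinases of the spindle assembly checkpoint. MAD2L1 is the checkpoint protein, not itself a kinase, that holds back the anaphase-promoting complex until all chromosomes are attached. In the testis these proteins serve both the mitotic divisions of spermatogonia and the 2 meiotic divisions of spermatocytes.

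In these data the genes did not move together. PLK1, PLK4, AURKA and BUB1 were lower in cattle-yak, by 2.25-fold to 4.82-fold in mean FPKM (fragments per kilobase of gene, scaled to the depth of the library). One of the 2 MAD2L1 genes was higher, and AURKB, AURKC, TTK and the other MAD2L1 gene did not pass both thresholds. The thresholds were an adjusted p under 0.05 from limma on log2 (FPKM + 1) over the 15042 genes whose FPKM averaged 0.5 or more, and a log2 fold change beyond 1. All 9 genes passed that filter on low values. By this rule 4 of the 9 genes were lower, where 20.8% of all tested genes were, and 1 of 9 was higher, where 33.4% of all tested genes were (54.2% in either direction). The median log2 fold change was −0.40 over the 9 genes and 0.51 over all tested genes.

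The values rest on 11175100 to 13136129 fragments on genes per library, and on 147 to 3994 fragments for each of these 9 genes in a library. In bulk tissue, fewer cells of a type and less RNA per cell cannot be told apart. The composition of the tissue differed greatly between the groups. By the study's histology, cattle-yak tubules held fewer spermatogonia and fewer primary and secondary spermatocytes than yak tubules, and lacked round spermatids and sperm. FPKM is a share of its library, so that the marker sums given next do not count cells. Summed over 5 elongating spermatid markers, the FPKM ranged from 14.9 to 73.3 in cattle-yak and from 8423 to 10369 in yak, and over 4 round spermatid markers from 5.03 to 29.3 against 798.9 to 876.0. The sum over 8 spermatocyte markers of meiotic prophase overlapped (200.1 to 324.7 against 217.0 to 255.3). Sums were higher in cattle-yak for 8 spermatogonia markers (775.2 to 980.7 against 228.5 to 301.1), 10 Sertoli cell markers (2936 to 3133 against 613.2 to 675.6), 6 Leydig cell markers (10434 to 12423 against 3340 to 4864) and 5 myoid cell markers (560.1 to 755.0 against 114.2 to 140.6). INSL3 alone gave 10027 to 12067 FPKM of the Leydig sum in cattle-yak and 3282 to 4769 in yak. DMRT1 was the largest part of the spermatogonia sum (421.9 to 561.0 against 100.2 to 153.8). All 6 Leydig markers were called higher, and 7 of the 8 spermatogonia markers, the exception being SOHLH2. Of 5 endothelial markers 2 were higher and 1 lower, with sums of 26.6 to 43.3 against 27.1 to 31.4, and of 5 macrophage markers 2 were higher and 2 lower, with sums of 37.1 to 50.3 against 93.1 to 105.2. No marker was at 0 in all libraries of a group. The part of this composition in the results below was not tested beyond the scalings and within-library ratios given.

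**Figure D1:**
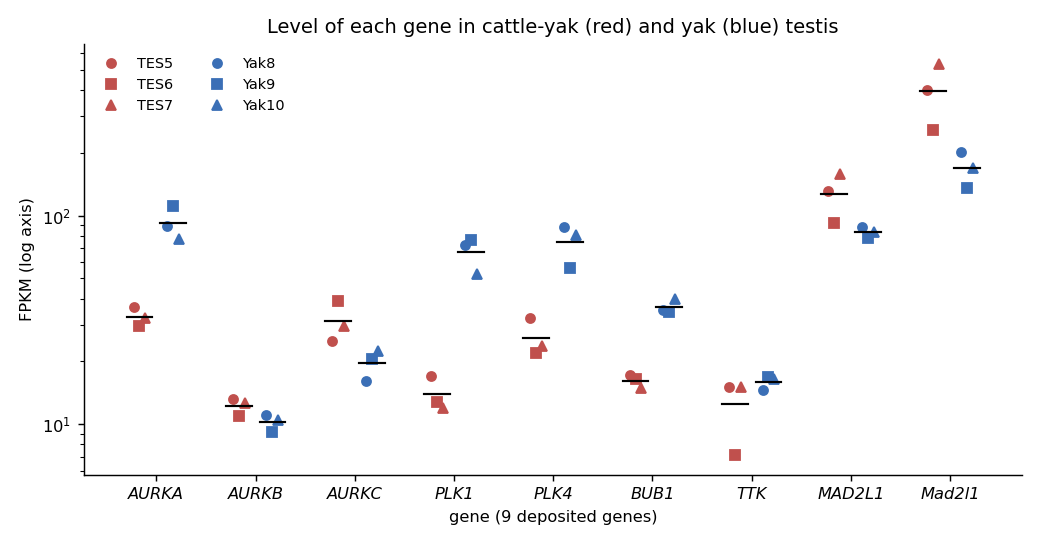
FPKM of each of the 9 genes on a log axis, with 1 point per library (cattle-yak red, yak blue) and a bar at the group mean; Mad2l1 and MAD2L1 are the 2 genes with that symbol. The cattle-yak points lie below all yak points for AURKA, PLK1, PLK4 and BUB1 and above them for AURKC and both MAD2L1 genes. For AURKB and TTK the ranges of the groups overlap.

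Among the polo-like kinases, PLK1 (ENSBGRG00000022391) had 17.1 FPKM in TES5, 12.8 in TES6 and 11.9 in TES7, against 72.6 in Yak8, 76.8 in Yak9 and 52.4 in Yak10. The groups did not overlap, and even Yak10, the lowest of the yak, lay far above TES5. Its mean fell from 67.3 ± 13.0 FPKM (SD, n = 3) in yak to 13.9 ± 2.78 (SD, n = 3) in cattle-yak. The log2 fold change of −2.19 (standard error 0.18, adjusted p = 9.9e-06 from limma) was the lowest of the 9 genes. PLK4 (ENSBGRG00000008016), which starts the copying of centrioles, had 32.4, 22.0 and 23.6 FPKM in TES5, TES6 and TES7. In Yak8, Yak9 and Yak10 it had 88.5, 55.9 and 80.6 FPKM, again with no overlap. Its mean was 2.89-fold lower in cattle-yak, with a log2 fold change of −1.49 (standard error 0.20, adjusted p = 1.7e-04 from limma).

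The 3 Aurora kinase genes went different ways. AURKA (ENSBGRG00000011397) had 36.6, 29.5 and 32.1 FPKM in TES5, TES6 and TES7, against 89.4, 110.9 and 77.1 in Yak8, Yak9 and Yak10. Every cattle-yak library lay below every yak library, and the mean was 32.8 ± 3.60 FPKM against 92.4 ± 17.1 (SD, n = 3), a log2 fold change of −1.46 (standard error 0.15, adjusted p = 3.1e-05 from limma). AURKB (ENSBGRG00000026727), the Aurora kinase of mitotic centromeres, had 13.3, 10.9 and 12.6 FPKM in TES5, TES6 and TES7, and 11.04, 9.19 and 10.5 in Yak8, Yak9 and Yak10. TES6 lay within the range of the yak libraries, and the log2 fold change of 0.24 had a 95% interval from −0.061 to 0.54 (adjusted p = 0.119 from limma). With median-of-ratios scaling this value changed sign to −0.33 (adjusted p = 0.043 from limma).

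AURKC (ENSBGRG00000014323), the Aurora kinase best known from meiosis, had 25.0 FPKM in TES5, 38.9 in TES6 and 29.7 in TES7. In Yak8, Yak9 and Yak10 it had 16.1, 20.5 and 22.4 FPKM. All cattle-yak values were above the yak values, although TES5 exceeded Yak10 by little. The mean was 31.2 ± 7.07 FPKM against 19.7 ± 3.23 (SD, n = 3), with a log2 fold change of 0.63 (95% interval 0.20 to 1.05, adjusted p = 0.012 from limma), short of the fold threshold. With median-of-ratios scaling, which lowered the median of all tested genes from 0.51 to 0.0072, the log2 fold change of AURKC was 0.024. AURKC thus lay close to the median of all tested genes under both scalings, while AURKA lay far below it (−1.46 and −2.07).

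**Figure D2:**
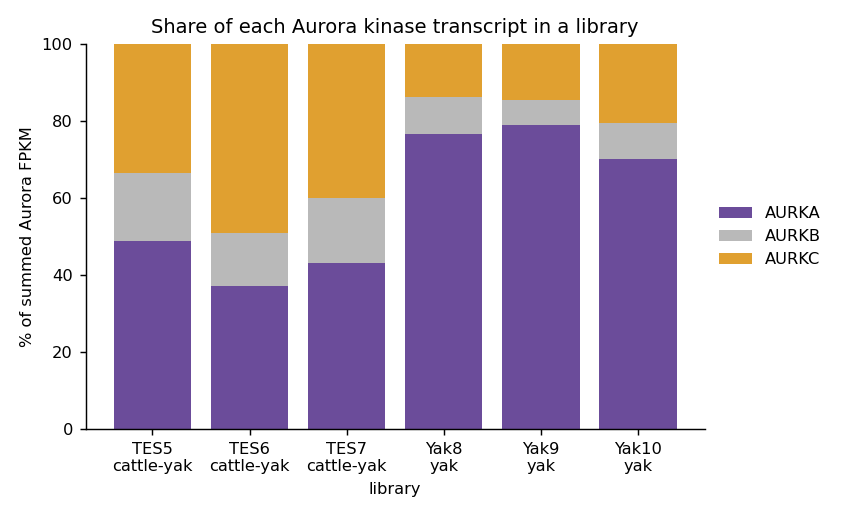
Share of AURKA, AURKB and AURKC in the summed FPKM of the 3 genes, in % (stacked bars, 1 per library). AURKA holds 37.2% to 48.9% in the cattle-yak libraries and 70.1% to 78.9% in the yak libraries, and AURKC 33.4% to 49.0% against 13.8% to 20.4%.

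Because a ratio of 2 genes within a library does not depend on the scaling between libraries, the Aurora genes were also set against each other. Their summed FPKM was 76.3 ± 2.69 in the hybrids against 122.4 ± 16.1 (SD, n = 3) in yak. AURKA made up 43.1% ± 5.85 of that sum in cattle-yak against 75.2% ± 4.56 in yak, and AURKC 40.8% ± 7.87 against 16.3% ± 3.58 (SD, n = 3). The ratio of AURKC to AURKA was 0.682, 1.32 and 0.924 in TES5, TES6 and TES7, and 0.181, 0.185 and 0.291 in Yak8, Yak9 and Yak10. In TES6 alone AURKC exceeded AURKA. The mean log2 ratio differed by 2.14, or 4.41-fold, in an exact permutation test (two-sided, p = 0.1, adjusted p = 0.167 over 5 ratios). With 3 libraries against 3, the smallest p this exact test can give is 0.1. The ratio of AURKB to AURKA was 0.375 ± 0.016 in cattle-yak against 0.114 ± 0.028 (SD, n = 3) in yak, 3.36-fold apart and without overlap (exact permutation test, p = 0.1). The ratio of AURKC to AURKB, the kinases that share the centromere, ran from 1.88 to 3.56 in the hybrids and from 1.46 to 2.24 in yak, which overlapped (exact permutation test, p = 0.4).

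Of the checkpoint kinases, BUB1 (ENSBGRG00000026763), which marks centromeres for the protectors of cohesion, had 17.1, 16.5 and 14.9 FPKM in TES5, TES6 and TES7. In Yak8, Yak9 and Yak10 it had 35.1, 34.7 and 39.6 FPKM. The groups lay apart with little spread in either, and the log2 fold change was −1.12 (standard error 0.11, adjusted p = 2.3e-05 from limma). TTK (ENSBGRG00000003901), the kinase that starts the checkpoint signal, had 15.1 FPKM in TES5, 7.10 in TES6 and 15.2 in TES7, against 14.6, 16.8 and 16.5 in Yak8, Yak9 and Yak10. TES5 and TES7 lay within the yak range and TES6 far below it. The log2 fold change of −0.40 (95% interval −0.997 to 0.20, adjusted p = 0.182 from limma) became −0.069 without TES6, and −0.98 (adjusted p = 0.0087 from limma, short of the fold threshold) with median-of-ratios scaling. TES6 also had the lowest sum of the spermatocyte markers, 200.1 FPKM against 324.7 in TES5 and 323.8 in TES7, and the part of this in the TTK value was not tested. The ratio of TTK to BUB1 was 0.880, 0.429 and 1.01 in TES5, TES6 and TES7 and 0.414 to 0.484 in yak, so that TES6 lay among the yak libraries (exact permutation test, p = 0.2). PLK4 exceeded PLK1 by 1.71-fold to 1.98-fold in the cattle-yak libraries, and their ratio was 1.22, 0.728 and 1.54 in Yak8, Yak9 and Yak10 (exact permutation test, p = 0.1).

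The symbol MAD2L1 stands on 2 genes without a description in the table, and since near-identical copies can share reads the value of each is uncertain. The first is written Mad2l1 (ENSBGRG00000023902) and its model, by the steps of its FPKM, spans 318 bases. The second is written MAD2L1 (ENSBGRG00000012321), with 501 bases. Mad2l1 had 399.9, 257.2 and 536.2 FPKM in TES5, TES6 and TES7, and 202.5, 135.6 and 168.5 in Yak8, Yak9 and Yak10. By FPKM it stood at rank 164, 290 and 106 among all genes in TES5, TES6 and TES7, and at rank 503, 888 and 694 in Yak8, Yak9 and Yak10. MAD2L1 had 131.4, 91.8 and 158.0 FPKM in TES5, TES6 and TES7, against 88.7, 77.8 and 83.6 in the yak libraries. For both genes all cattle-yak values lay above the yak values, with TES6 lowest and TES7 highest among the cattle-yak.

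Mad2l1 was 2.36-fold higher in cattle-yak, with a log2 fold change of 1.19 (95% interval 0.59 to 1.79, adjusted p = 2.8e-03 from limma). This call was lost without TES7 (0.94) and with median-of-ratios scaling (0.56, adjusted p = 0.079 from limma). MAD2L1 had a log2 fold change of 0.57 (95% interval 0.15 to 0.99, adjusted p = 0.019 from limma), short of the fold threshold, and −0.053 with median-of-ratios scaling. The ratio of Mad2l1 to MAD2L1 ran from 2.80 to 3.39 in the hybrids and from 1.74 to 2.28 in yak, without overlap.

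**Figure D3:**
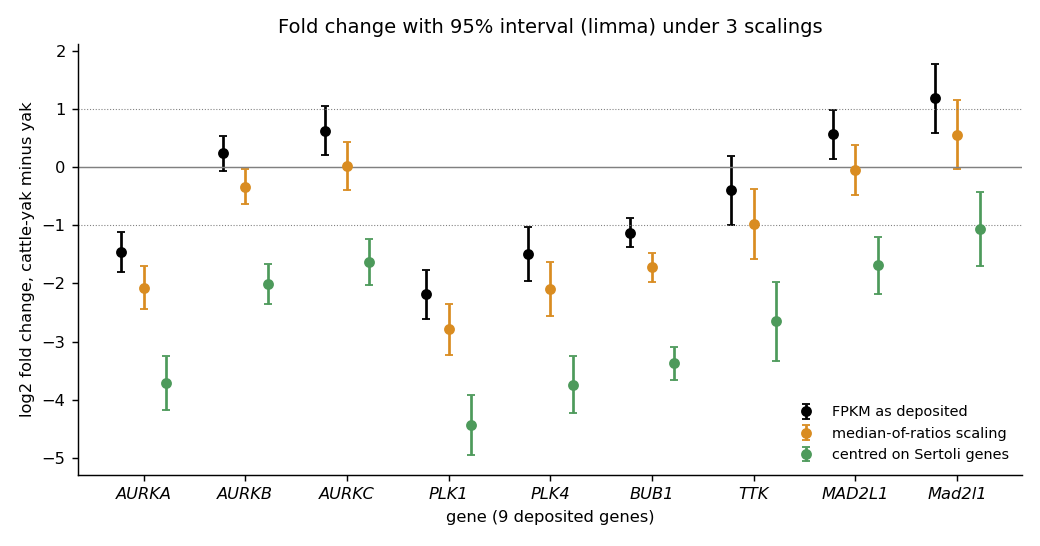
Log2 fold change of cattle-yak minus yak with its 95% interval from limma for each gene, with FPKM as deposited (black), after median-of-ratios scaling (orange) and after centring each library on the Sertoli genes (green); dotted lines mark −1 and 1. PLK1, PLK4, AURKA and BUB1 lie below −1 in all 3 scalings, and the signs of AURKB, AURKC and both MAD2L1 genes depend on the scaling.

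Across the 9 genes, the values of 7 did not overlap between the groups (4 lower and 3 higher in cattle-yak), as for 84.1% of all tested genes (30.2% lower and 53.9% higher). The calls for PLK1, PLK4, AURKA and BUB1 held when the pseudocount, the filter or the libraries were changed. Median-of-ratios scaling and Sertoli centring both shift fold changes downward, so that their keeping a lower call is no further support for it. Over all settings, these scalings included, PLK1 lay between −4.44 and −2.08 and BUB1 between −3.38 and −1.06. Over all tested genes, 5023 were higher and 3136 lower with FPKM as deposited, 2624 and 4193 with median-of-ratios scaling, and 28 and 11192 after centring on the 10 Sertoli markers. After that centring all 9 genes were lower in cattle-yak. The study itself used DESeq with the same thresholds and reported more genes lower than higher in cattle-yak. FPKM as deposited gave the opposite balance.

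The order by FPKM within a group also differed. FPKM divides by length, and the model of Mad2l1 spans only 318 bases. Its 565 to 846 fragments in the yak libraries were fewer than the 2520 to 3994 of PLK4. In yak, Mad2l1 stood first (168.9 FPKM on average), followed by AURKA, MAD2L1, PLK4 and PLK1 between 92.4 and 67.3, whose neighbours overlapped in their ranges. Below them came BUB1 (36.5), AURKC (19.7), TTK (15.9) and AURKB (10.2), and only AURKC and TTK overlapped among these. In cattle-yak, Mad2l1 and MAD2L1 stood first with 397.8 and 127.0 FPKM, apart from each other and from the rest. AURKA, AURKC and PLK4 followed with 32.8, 31.2 and 26.0 FPKM and overlapped as neighbours. BUB1, PLK1, TTK and AURKB, from 16.2 to 12.3 FPKM, overlapped as neighbours as well, so that PLK1 moved from among the more abundant of these genes to the level of AURKB.

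Each gene was next set beside 2 germ cell stages in the same library, as log2 (FPKM + 1) minus the mean over the marker list. Relative to the 8 spermatocyte markers, AURKA lay at 0.38, 0.74 and 0.34 in TES5, TES6 and TES7 and at 2.01, 2.38 and 1.65 in Yak8, Yak9 and Yak10, a difference of −1.53. PLK1, PLK4 and BUB1 differed by −2.26, −1.56 and −1.19, and TTK by −0.47, each without overlap between the groups. Mad2l1 and MAD2L1 lay 1.12 and 0.50 above the yak on this scale, without overlap. Thus 5 of the 9 genes lay lower, where 27.4% of all tested genes did, and 2 lay higher, where 46.6% did, and the median difference of all tested genes was 0.44. AURKB (0.17) and AURKC (0.56) overlapped. Each value without overlap had p = 0.1 in the exact permutation test, the smallest possible, and an adjusted p of 0.12 over 18 tests. The mean of the spermatocyte list itself differed by 0.068 between the groups, but its 8 markers went both ways, with log2 fold changes from −0.64 for SYCP2 to 1.10 for SYCP3, genes of the synaptonemal complex named here after their values were seen. SYCP3 was the 1 marker called higher, and none was called lower.

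Relative to the 8 spermatogonia markers, which were 1.68 higher in cattle-yak on the same scale, 8 of the 9 genes lay lower in cattle-yak without overlap. The same held for 74.1% of all tested genes, whose median difference was −1.16, and the count says little about these 9 genes. The differences ran from −3.86 for PLK1 to −1.05 for AURKC, and Mad2l1 overlapped with −0.49. AURKB had −1.43 on this scale.

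**Figure D4:**
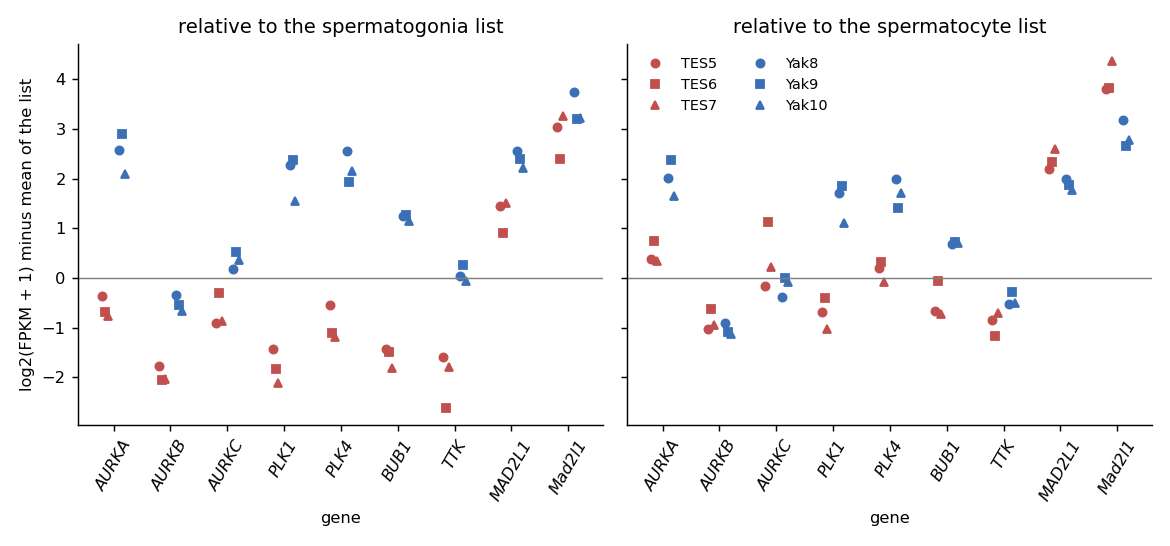
Log2 (FPKM + 1) of each gene minus the mean of the spermatogonia list (left) or of the spermatocyte list (right) in the same library, with 1 point per library (cattle-yak red, yak blue). On the left the groups separate for every gene except Mad2l1, and on the right AURKB and AURKC overlap while AURKA, PLK1, PLK4 and BUB1 lie lower in cattle-yak.

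The partners of these kinases were taken from 9 lists of 78 genes, of which 71 were tested. Of these 71 genes 18 were called lower, where 20.8% of all tested genes were. Another 12 were called higher, where 33.4% of all tested genes were, and 41 were not called. The log2 fold changes of the 71 centred on −0.23 (median), against 0.51 over all tested genes. After median-of-ratios scaling the calls were 28 lower and 2 higher (FBXO5 and CCNB3). Over all 15042 tested genes that scaling called 4193 lower and 2624 higher. Whether the counts of any single list below differ from these shares was not tested. From each list the genes with the highest and the lowest value are given, and the others named were chosen after their values were seen.

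Of 5 partners and regulators of the chromosomal passenger complex, in which Aurora B or C is the enzyme, 2 were lower and none higher. HASPIN, the histone kinase that recruits the complex to centromeres, had 18.3, 12.4 and 10.7 FPKM in TES5, TES6 and TES7 and 182.9, 204.4 and 198.8 in Yak8, Yak9 and Yak10. Its log2 fold change was −3.76 (adjusted p = 5.7e-07 from limma). BIRC5, the survivin subunit, had −1.16, whereas CDCA8, the borealin subunit, had 17.9 ± 0.53 FPKM against 16.7 ± 0.81 (SD, n = 3) and was not called (0.092). SGO1, the shugoshin of mitotic cohesion, had the highest value, 0.63 (not past the fold threshold, and 0.055 with median-of-ratios scaling). Of 4 cofactors of Aurora A and PLK1, TPX2, the activator of Aurora A on the spindle, was higher, at 95.2 ± 10.5 against 38.5 ± 2.41 FPKM (SD, n = 3), by 1.28 on the log2 scale (adjusted p = 1.2e-05 from limma). That of TPX2 was 0.66 with median-of-ratios scaling and no longer past the fold threshold. BORA, through which Aurora A activates PLK1, had the lowest value, −0.91, short of the fold threshold.

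Of 8 other checkpoint proteins 2 were higher and 1 lower. KNTC1, a subunit of the complex that brings MAD proteins to kinetochores, had 1.23, and MAD2L1BP, which helps to take MAD2L1 off its targets, had 1.21. SPDL1, the adaptor of dynein at kinetochores, had −1.58. The log2 fold change of BUB3, the partner of BUB1, was −0.23, and MAD1L1, the partner of MAD2L1, had 9.72 ± 0.76 FPKM against 9.74 ± 0.93 (SD, n = 3), neither of them past the test. Of 9 outer kinetochore genes, 2 subunits of the NDC80 complex were lower, SPC24 with −1.85 and NUF2 with −1.36. The other subunits of that complex, SPC25 and NDC80, had −0.17 and 0.29 and were not called. NSL1, of the neighbouring MIS12 complex, was higher with 1.44 (0.89 with median-of-ratios scaling).

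The anaphase-promoting complex and its regulators, the target of the checkpoint, had 7 of 18 genes lower and 2 higher, with a median of −0.72. FBXO43, the inhibitor of the complex that is best known from meiosis, had the lowest value with 6.48, 4.43 and 2.35 FPKM in TES5, TES6 and TES7 against 20.5 ± 0.49 (SD, n = 3) in yak, a log2 fold change of −2.07 (adjusted p = 1.2e-04 from limma). Its paralog FBXO5, the inhibitor of mitotic cells, had the highest value, at 17.3 ± 0.98 against 4.39 ± 0.84 FPKM (SD, n = 3), a log2 fold change of 1.77 (adjusted p = 1.1e-05 from limma), and stayed past the threshold at 1.22 with median-of-ratios scaling. CDC20, the activator that MAD2L1 binds, has 2 rows, and the larger had 66.8, 37.5 and 48.6 FPKM in TES5, TES6 and TES7 against 213.7, 240.7 and 172.0 in Yak8, Yak9 and Yak10, a log2 fold change of −2.04. CDC23, a core subunit, was the second gene called higher, with 1.35.

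Of 13 genes around CDK1, 3 were higher and 3 lower, and CDK1 itself had 0.15 (adjusted p = 0.423 from limma). The lower ones were CCNA1, the A-type cyclin of male meiosis, with −3.31, PKMYT1, an inhibitory kinase of CDK1, with −1.79, and CCNB2, a B-type cyclin with 2 rows of which the larger was used, with −1.60. The higher ones were CCNB3, a cyclin of early meiosis, with 1.99 (or 1.43 when scaled by median of ratios), the phosphatase CDC25B with 1.15 and the kinase WEE1 with 1.01. Of 5 centriole genes that work with PLK4, CEP63 and CEP152, which form the ring that holds PLK4, were lower with −2.62 and −1.49. STIL and SASS6, the substrate of PLK4 and the wheel protein of new centrioles, had 0.22 and 0.091 and were not called. NEK2, the kinase that parts the centrosomes, was lower with −1.72, and PLK3 had 0.017. Of 7 replication genes 3 were higher and none lower, MCM3, MCM2 and MCM6 with 1.43, 1.25 and 1.24, each under 1 with median-of-ratios scaling, and PCNA had the lowest value, −0.11.

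**Figure D5:**
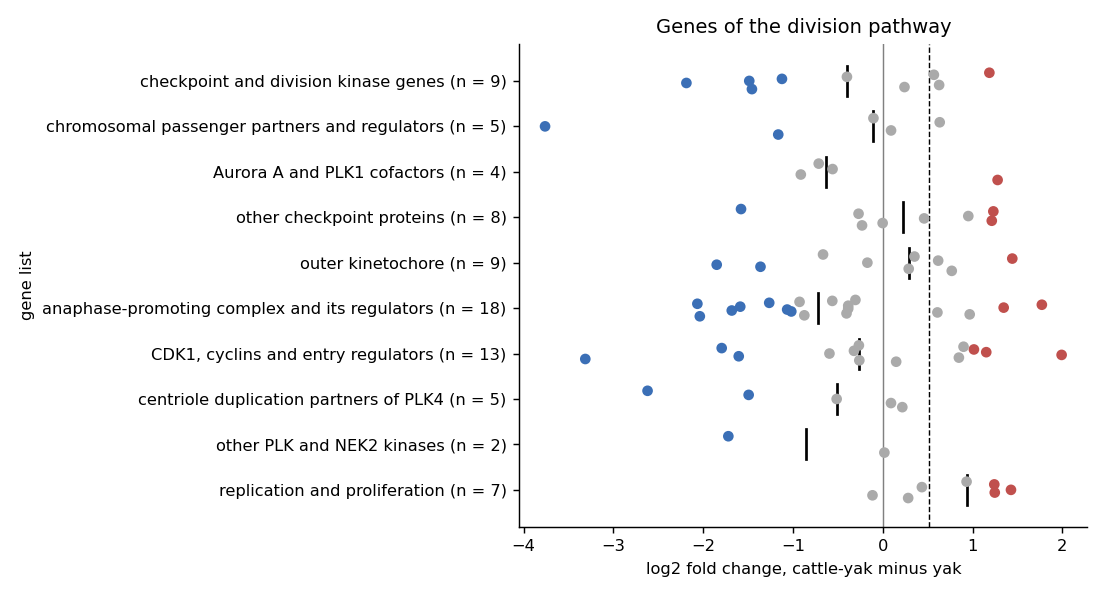
Log2 fold change of cattle-yak minus yak for the 9 genes (top row) and for the tested genes of each list, with called genes in red (higher) and blue (lower), the others in grey, a black bar at the median of each row and a dashed line at the median of all tested genes, 0.51. The anaphase-promoting complex row lies mostly below 0 and the replication row mostly above it.

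In the annotation deposited with the table, 4 of the 9 genes carry the Gene Ontology (GO) term mitotic spindle assembly checkpoint, which 17 genes of the table have. The 3 Aurora genes are among the 5 annotated to the chromosome passenger complex. BUB1 and MAD2L1 carry KEGG pathways only and no GO term, so that they could not be counted for either term. The KEGG pathways cell cycle, oocyte meiosis and progesterone-mediated oocyte maturation each hold 5 of the 9. Over the 127 tested genes of the cell cycle pathway, 29.1% were higher and 15.7% lower, with a median log2 fold change of 0.49, against 33.4% and 20.8% of all tested genes. Oocyte meiosis had 31.4% higher and 20.7% lower, and progesterone-mediated oocyte maturation 29.9% and 21.8%. Among the genes whose profile over the 6 libraries lay closest to Mad2l1, by the Euclidean distance of centred log2 (FPKM + 1), were RPS4X (0.37) and FGL1 (0.37). Closest to AURKC were ADAMTS17 (0.18), AMPD3 (0.21) and Matn2 (0.21). In mean FPKM for cattle-yak and yak, RPS4X had 3.54 and 0.75, ADAMTS17 1.64 and 0.65, and AMPD3 0.89 and 0.18. At such low values the added 1 shrinks changes, so that a small distance does not mean a similar fold change. FGL1 had 15.9 and 7.44 FPKM, and Matn2 9.54 and 5.94.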

How the data were processed

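Testis RNA-seq was compared between 3 cattle-yak and 3 yak, with 1 stranded library each. Per the study's methods, the authors trimmed reads with Trimmomatic, mapped those of both groups with HISAT2 to the yak genome LU_Bosgru_v3.0, so that reads from cattle alleles may map less well, and computed FPKM with Cufflinks. The deposited FPKM values are per gene length and library depth, with no scaling between libraries. Whole fragments were recovered from the FPKM steps of all 17973 genes with at least 2 values above 0, and 99.4% of the 11739 gene lengths used for the depth came within 0.02 of a whole number of bases. Depth was 11175100 to 13136129 fragments on genes.

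Genes averaging 0.5 FPKM or more were tested two-sided with limma 3.58.1 in R 4.3.3 (variance trend, Benjamini-Hochberg) on log2 (FPKM + 1), a scale that understates changes of low genes. On simulated data with 200 of 15042 genes changed 4-fold, limma recovered 184 and called 1 other. The simulation changed as many genes up as down and gave every gene the same set spread between libraries. It held no broad shift like that of these data, where 54.2% of tested genes were called. It therefore does not give the error rate of the calls reported here. Within-library ratios were compared with exact permutation tests (Python 3.11.15). For symbols on several rows the most abundant was used in lists. The rule named from each list the genes with the highest and lowest change, those called against the direction of most of the list, and, for likeness, the 3 closest to the most abundant member and to AURKC, of which 1 is not reported here. Other list genes in the text were chosen after their values were seen. Whether counting used strand is not given in the sources used here. The members and lists were chosen with earlier results of these data known. Lists were spermatogonia, spermatocyte, round and elongating spermatid, Sertoli, Leydig, myoid, endothelial and macrophage markers, and 9 lists of the division pathway. The limma p-values weigh the difference between the groups against the spread between these animals, moderated over all tested genes. The permutation p-values place the observed difference among the 20 assignments of the libraries. Alternatives were 2 smaller pseudocounts (0.1, 0.01), dropping the low-value filter or raising it to 5 FPKM, 3 scalings (median-of-ratios, TPM, Sertoli-centred), no variance trend, voom on the recovered fragments, no fold threshold and the omission of each library. Promoter motifs were not analysed here.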

Additional observations from a re-analysis of the deposited data

How the results depend on the processing

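The counts depended on the scaling. The 1 gene called higher among the 9 was 0 with median-of-ratios scaling, 0 with Sertoli centring and 3 with no fold threshold, and 0 to 1 over the omissions of a library (0 without TES7). The 4 called lower were 9 with Sertoli centring and 4 in each omission. Over all tested genes, the 5023 higher became 2624 with median-of-ratios scaling, 28 with Sertoli centring and 7916 with no fold threshold, and the 3136 lower became 11192 with Sertoli centring. The sign turned with median-of-ratios scaling for MAD2L1 (−0.053) and AURKB (−0.33), and with Sertoli centring for MAD2L1 (−1.68), Mad2l1 (−1.07), AURKC (−1.62) and AURKB (−2.01). Sertoli centring shifts every gene of a library by 1 amount, whereas median-of-ratios scaling divides the FPKM before the logarithm and so moves low genes less. Pseudocounts, filters, TPM scaling, the variance trend and voom on the recovered fragments changed no call among the 9 genes. With a library left out, the log2 ratio differed by 1.90 to 2.37 for AURKC to AURKA, 1.53 to 1.89 for AURKB to AURKA, 0.44 to 0.98 for PLK4 to PLK1, 0.49 to 1.11 for TTK to BUB1 and 0.14 to 0.60 for AURKC to AURKB. No paired analysis was run, because the groups were different animals from different counties and no pairs are described. With 3 libraries a group, exact permutation tests cannot go below 0.1.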
